A study of Homo sapiens
Mus musculus with 24 samples.

Results

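Macrophages of the host and their activation state were followed through 10 murine genes measured in MDA-MB-231 xenografts. The genes were given by name, and all 10 of 10 were found among the 16667 murine genes of the table, each with 1 identifier. They were in part chosen on these data: the list was drawn up with earlier results known, among them the low *Retnla* of MC + Chemo against CTRL. Every contrast that uses the CTRL or the MC + Chemo tumors is therefore given for *Retnla* as a description with no test, and the 9 other genes are counted without it there. The list holds 3 genes shared by most macrophages (*Adgre1*, *Cd68* and *Csf1r*) and 7 genes of alternative activation or of tissue macrophages (*Mrc1*, *Cd163*, *Retnla*, *Arg1*, *Chil3*, *C1qa* and *Folr2*).

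MDA-MB-231 is a human triple negative breast cancer line. It was grown under the skin of female B6/Rag1KO mice, 14 weeks old at injection, which cannot make mature T and B cells but keep innate immune cells. Mice on a high-fat diet with a tumor above 200 mm3 were randomized to saline vehicle (CTRL, 4 tumors), weekly doxorubicin with cyclophosphamide (Chemo, 5), moringa seed concentrate in the diet (MC, 5) or both treatments (MC + Chemo, 6). A non-randomized group of tumor-bearing mice received the lean diet (Lean, 4). Tumors are named by group and by the number in their labels, and nothing in the labels ties 2 tumors to 1 mouse.

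In mouse tissue *Adgre1* encodes the F4/80 surface receptor, *Cd68* a lysosomal glycoprotein, and *Csf1r* the receptor for the growth factors CSF1 and IL-34, on which most macrophages depend. Interleukin-4 and interleukin-13 act through the IL-4 receptor and STAT6 and drive alternative activation, whose textbook murine markers are *Retnla* (the secreted protein RELMα), *Arg1* (arginase, which breaks down arginine), *Chil3* (the chitinase-like protein Ym1) and *Mrc1* (the mannose receptor CD206). *Cd163* (a scavenger receptor for haemoglobin-haptoglobin), *Folr2* (a folate receptor) and *C1qa* (a chain of complement C1q) are typical of macrophages resident in tissue. In bulk tumors fewer macrophages and less RNA of a gene per macrophage cannot be told apart.

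Murine counts ran from 3664056 to 9892470 per library, and the 10 genes took 0.105 to 0.308% of them. Human reads made up 47.8 to 74.0% of all counts. Defining macrophage genes were plentiful in every tumor, and of 10 T and B cell markers only *Cd4* and *Cd8b1* were in the table. CTRL 17 stood apart from the other CTRL tumors, with 513 summed normalized counts of 8 endothelial markers against a CTRL median of 3308, and the differences of *Retnla*, *Chil3*, *Cd163* and *Folr2* from CTRL are given with and without it. An added column cleanup was recorded for Lean 3, MC 41 and MC 42, and MC + Chemo 5 is called MC by the group field of its labels but MC + Chemo by its title, which was followed.

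The 3 pan-macrophage genes differed little among the groups. Values are normalized counts, mean ± SD, and where 5 values follow each other their order is CTRL (n = 4), Chemo (n = 5), MC (n = 5), MC + Chemo (n = 6) and Lean (n = 4). *Adgre1* (ENSMUSG00000004730) averaged 621 ± 163, 602 ± 146, 504 ± 126, 631 ± 84.9 and 540.4 ± 77.8. *Cd68* (ENSMUSG00000018774) averaged 892 ± 257, 832 ± 262, 777 ± 322, 1069 ± 146 and 807 ± 140.1. *Csf1r* (ENSMUSG00000024621) averaged 2861 ± 739, 3031 ± 413, 3090.1 ± 1218, 3076 ± 618 and 3327 ± 355. The tumors of all 5 groups overlapped for each of these genes. Within the whole set *Adgre1* spanned 2.89-fold, *Csf1r* 2.82-fold and *Cd68* 3.70-fold from the lowest to the highest tumor, and MC 6 was the lowest for all 3.

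The fitted difference of *Adgre1* from CTRL was −0.04 ± 0.22 in Chemo, −0.28 ± 0.22 in MC, 0.02 ± 0.21 in MC + Chemo, with −0.19 ± 0.22 in Lean (log2 fold change ± SE, edgeR quasi-likelihood fit). For *Cd68* these values were −0.10 ± 0.29, −0.19 ± 0.29, 0.25 ± 0.28 and −0.13 ± 0.29, and for *Csf1r* they were 0.09 ± 0.26, 0.12 ± 0.26, 0.10 ± 0.25 and 0.23 ± 0.26. None of these differences passed the Benjamini-Hochberg adjusted threshold (adjusted p from 0.629 to 1), and for 10 of the 12 at least 1 other setting gave the opposite sign.

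*C1qa* (ENSMUSG00000036887), likewise, had overlapping groups. It averaged 5527 ± 1565, 4886 ± 1207, 5042 ± 1517, 6144 ± 540.3 and 4917 ± 283 normalized counts, and the 24 tumors spanned 2.08-fold. The log2 fold change against CTRL was −0.17 ± 0.23 in Chemo, −0.12 ± 0.23 in MC, 0.15 ± 0.22 in MC + Chemo, with −0.16 ± 0.23 in Lean (adjusted p from 0.811 to 1).

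**Figure D1:**
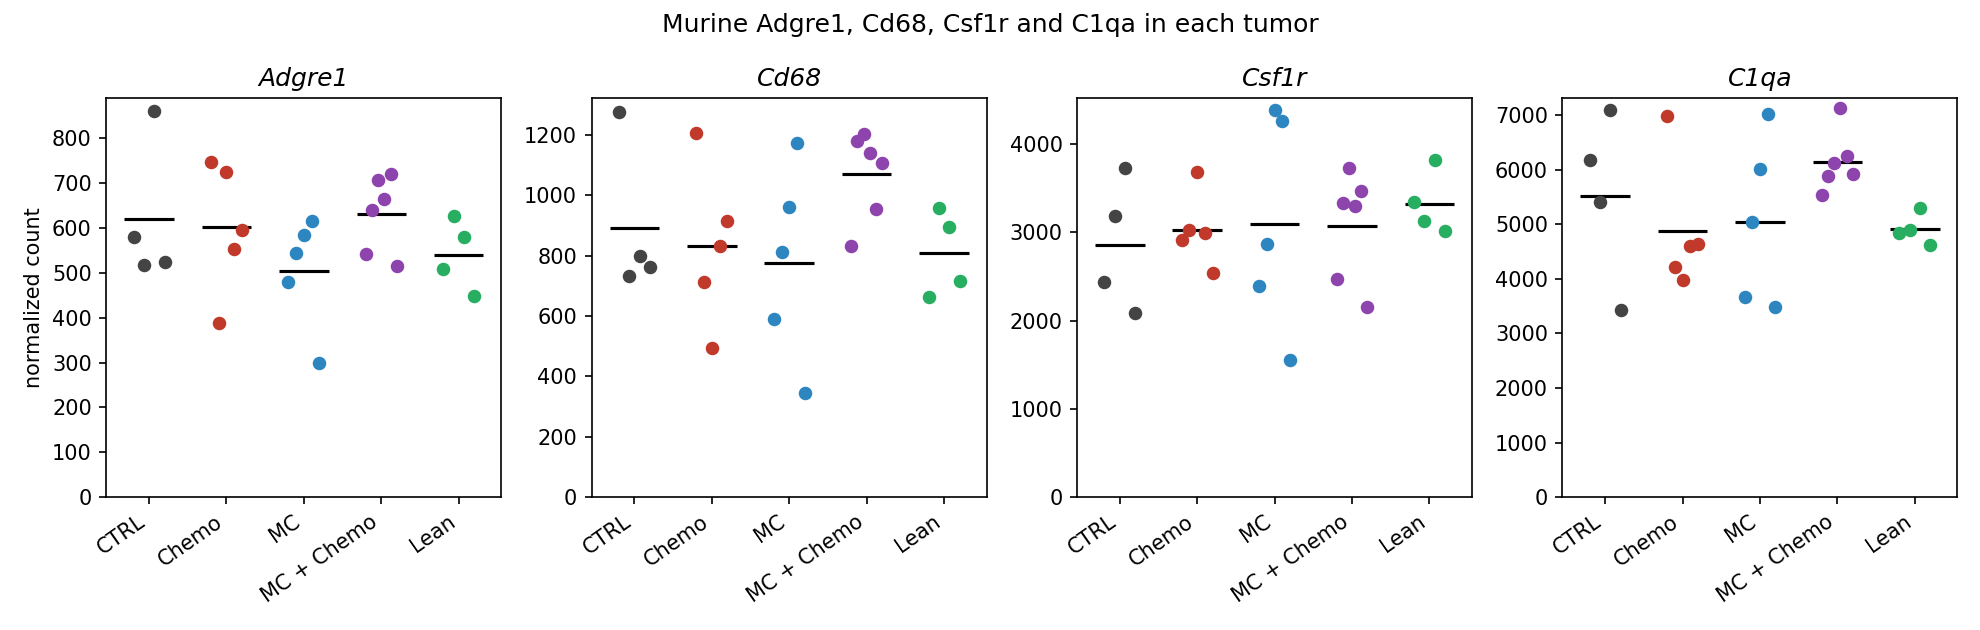
Normalized counts of murine *Adgre1*, *Cd68*, *Csf1r* and *C1qa* (linear vertical axes from 0, a different scale in each panel) in the 24 tumors by group, with 1 point per tumor and a line at the group mean. The 5 groups overlap in all 4 panels, and MC 6 is the lowest tumor for *Adgre1* (298), *Cd68* (344) and *Csf1r* (1556).

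*Retnla* (ENSMUSG00000061100) had the widest range of the genes detected in every tumor. In CTRL it stood at 3929 normalized counts in CTRL 17, 420.0 in CTRL 31, 864 in CTRL 44 and 852 in CTRL 70. In Chemo it stood at 38.4, 193, 98.8, 312 and 38.0 in tumors 19, 30, 33, 34 and 67. All 5 Chemo tumors lay below all 4 CTRL tumors.

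In MC the values were 198, 723, 841, 1167 and 273 in tumors 6, 41, 42, 48 and 59, and in Lean they were 559.5, 1426, 404 and 940.2 in tumors 3, 21, 24 and 54. Both groups overlapped CTRL. In MC + Chemo, which shared in the choice of the gene, the lowest, median and highest of 6 tumors were 32.8, 168 and 387, all below CTRL. Of the 13 tumors without chemotherapy 11 exceeded the highest of the 11 tumors with it, the exceptions being MC 6 and MC 59. The group medians ran in the order CTRL (858), Lean (749.8), MC (723), MC + Chemo (168) and Chemo (98.8), and each pair of neighbours in that order overlapped.

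Chemo against MC uses neither CTRL nor MC + Chemo tumors, and there *Retnla* was 4.72-fold lower (log2 fold change −2.24 ± 0.70 SE), which did not pass the test across all genes (edgeR adjusted p = 0.245, DESeq2 adjusted p = 0.0869). This comparison was added after the values were seen.

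As a description only, the fitted log2 fold change of *Retnla* against CTRL was −3.48 ± 0.75 in Chemo, an 11.1-fold lower level, and −3.0 ± 0.69 in MC + Chemo (edgeR fit, ± SE). Without CTRL 17 these values were −2.37 and −1.91. The values in MC and Lean were −1.24 ± 0.70 and −0.84 ± 0.72, and without CTRL 17 they were −0.15 and 0.24. Chemotherapy averaged over the control and MC diets gave −2.62 ± 0.49 (−2.07 without CTRL 17), and the change of the chemotherapy difference with MC was 1.71 ± 0.96 (0.61 without it). Each of these values was nearer 0 without CTRL 17.

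*Chil3* (ENSMUSG00000040809) went the other way. In CTRL it stood at 2.88, 16.4, 24.3 and 25.1 normalized counts in tumors 17, 31, 44 and 70, and in Chemo at 94.8, 44.2, 146, 73.2 and 33.3 in tumors 19, 30, 33, 34 and 67. All Chemo tumors exceeded all CTRL tumors. In MC it stood at 0, 14.5, 13.7, 23.2 and 20.7 in tumors 6, 41, 42, 48 and 59.

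MC + Chemo held 15.8 to 63.4 normalized counts of *Chil3* (median 45.3, n = 6), and only MC + Chemo 52 fell within the CTRL range. Lean held 21, 11.2, 48.9 and 10.0, with Lean 24 above the other Lean tumors. Raw counts behind these values were small, from 0 to 51 without chemotherapy and from 18 to 145 with it. The table holds no *Chil4*, a close paralog of *Chil3*, and how reads matching more than 1 gene were counted is not given in the sources used here, so the *Chil3* counts may hold reads of such a copy.

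In the fit *Chil3* was 4.51-fold higher in Chemo than in CTRL (log2 fold change 2.17 ± 0.61 SE), without passing the test (edgeR adjusted p = 0.741, DESeq2 adjusted p = 0.0731), and 1.83 on the log2 scale without CTRL 17. Against MC it was 5.22-fold higher in Chemo (2.39 ± 0.57, edgeR adjusted p = 0.191), which DESeq2 called (adjusted p = 0.00341). Averaged over the control and MC diets the difference with chemotherapy was 1.86 ± 0.41 (edgeR adjusted p = 0.166, DESeq2 adjusted p = 0.00116), and without CTRL 17 DESeq2 still called it (1.70, adjusted p = 0.00191). MC + Chemo against CTRL gave 1.33 ± 0.59 (adjusted p = 0.369), MC against CTRL −0.21 ± 0.62 (adjusted p = 0.921) and Lean against CTRL 0.41 ± 0.65 (adjusted p = 1). Without CTRL 17 these values were 0.98, −0.57 and 0.06.

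*Arg1* (ENSMUSG00000019987) followed neither pattern. It stood at 208, 57.0, 114 and 172 normalized counts in CTRL 17, 31, 44 and 70, and in Chemo it ran from 39.5 to 348 (median 168, n = 5). MC held 61.7 to 144 and MC + Chemo 46.1 to 361, and 1 Lean tumor, Lean 24, reached 814 while the other Lean tumors held 128, 56.2 and 205. All groups overlapped. The log2 fold change against CTRL was 0.47 ± 0.58 in Chemo, −0.53 ± 0.58 in MC, 0.08 ± 0.56 in MC + Chemo, with 1.13 ± 0.70 in Lean (adjusted p from 0.752 to 1). Without Lean 24 the Lean difference was −0.08.

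**Figure D2:**
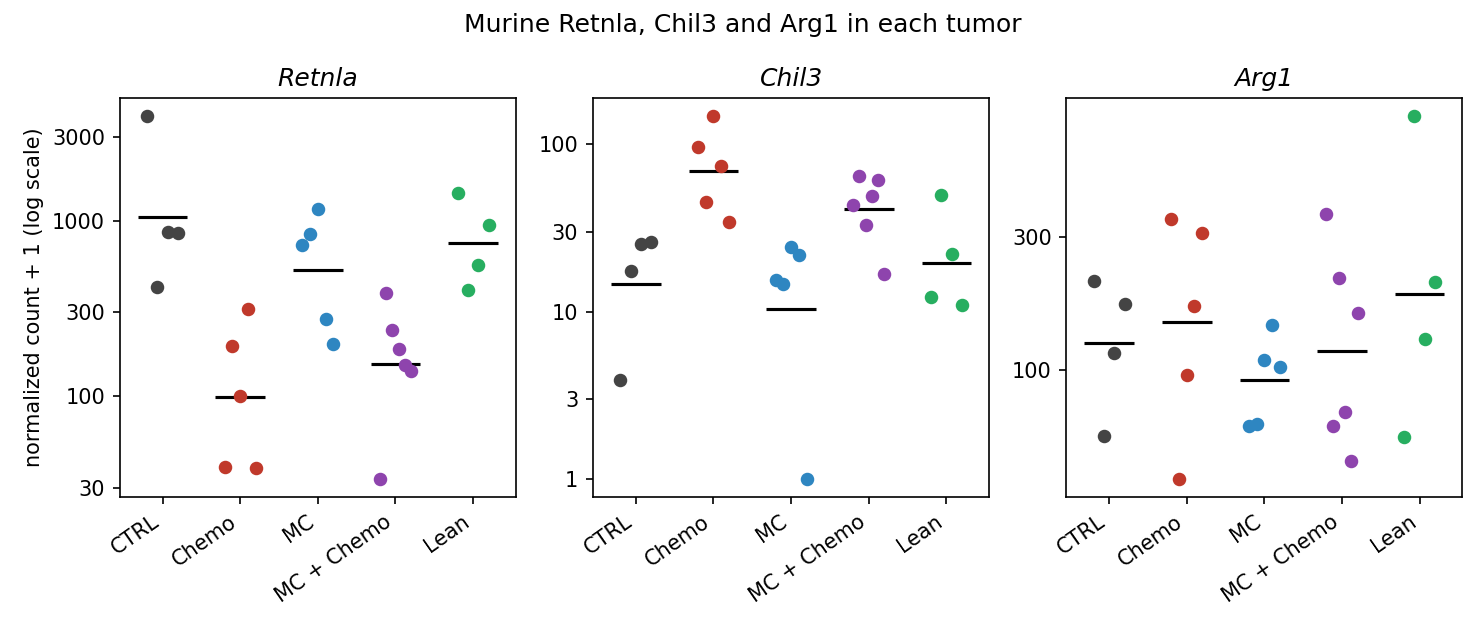
Normalized count plus 1 (log vertical axes, a different range in each panel) of murine *Retnla*, *Chil3* and *Arg1* in the 24 tumors by group, with 1 point per tumor and a line at the geometric mean of the group. The Chemo tumors sit below CTRL for *Retnla* (38.0 to 312 against 420.0 to 3929) and above CTRL for *Chil3* (33.3 to 146 against 2.88 to 25.1), while the *Arg1* groups overlap.

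The 3 receptors of tissue macrophages had groups that overlapped. *Mrc1* (ENSMUSG00000026712) averaged 1425 ± 375, 1359 ± 350.3, 1214 ± 253, 1729.5 ± 787 and 1204 ± 117 normalized counts. Its extremes were both in MC + Chemo, at 641 in tumor 25 and 2688 in tumor 43. The log2 fold change of *Mrc1* against CTRL lay between −0.23 and 0.27 in the 4 groups (adjusted p from 0.736 to 1).

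*Cd163* (ENSMUSG00000008845) stood at 204 normalized counts in CTRL 17 but at 36.7, 38.4 and 43.4 in the other CTRL tumors. It ran from 18 to 76.8 in Chemo, from 41.4 to 139 in MC, from 15.4 to 289 in MC + Chemo and from 40.2 to 112 in Lean. *Folr2* (ENSMUSG00000032725) had the same outlying tumor, with 616 in CTRL 17 against 83.0, 123 and 114 in the rest of CTRL. It ran from 68.6 to 179 in Chemo, from 46.0 to 235 in MC, from 81.1 to 403 in MC + Chemo and from 116 to 159 in Lean. For both genes each group overlapped CTRL.

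Against CTRL the log2 fold change of *Cd163* was −0.76 ± 0.64 in Chemo, 0.05 ± 0.63 in MC, 0.62 ± 0.61 in MC + Chemo, with −0.28 ± 0.65 in Lean, and that of *Folr2* was −0.89 ± 0.56, −0.81 ± 0.56, 0.13 ± 0.54 and −0.76 ± 0.56. None passed the edgeR test (adjusted p from 0.582 to 1). Without CTRL 17 the *Folr2* values became 0.25 in Chemo, 0.32 in MC, 1.27 in MC + Chemo, with 0.36 in Lean, and the *Cd163* values became 0.26, 1.07, 1.65 and 0.73. The change of the *Folr2* chemotherapy difference with MC was 1.84 ± 0.76 (adjusted p = 0.695), and 0.69 without CTRL 17.

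**Figure D3:**
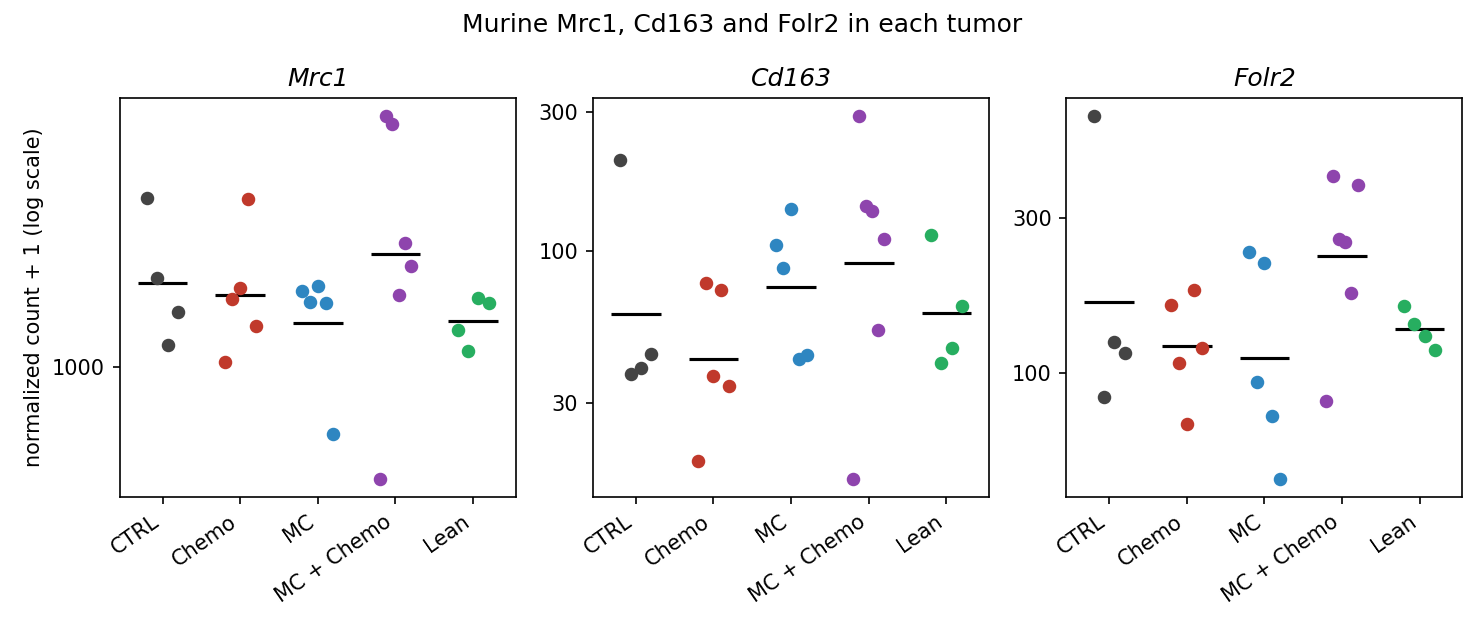
Normalized count plus 1 (log vertical axes, a different range in each panel) of murine *Mrc1*, *Cd163* and *Folr2* in the 24 tumors by group, with 1 point per tumor and a line at the geometric mean of the group. CTRL 17 stands above the other CTRL tumors for *Cd163* (204) and *Folr2* (616), and MC + Chemo 43 is the highest of all tumors for *Mrc1* (2688) and *Cd163* (289).

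A transcript counted as called at an adjusted p below 0.05, a mean normalized count above 30 and a fold change above 1.5. By edgeR 0 of the 9 genes other than *Retnla* were called in Chemo, MC or MC + Chemo against CTRL, in MC averaged over chemotherapy and in the MC by chemotherapy interaction, and 0 of all 10 in Chemo against MC, where 0% of the 15011 tested transcripts were called. In Lean against CTRL 0 of the 9 were called as well (0% of 15029). Over all transcripts these 7 comparisons gave 0 to 416 calls by DESeq2.

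At an unadjusted p under 0.05 by edgeR *Chil3* was the 1 of 9 genes in Chemo against CTRL (4.53% of all transcripts) and in MC + Chemo against CTRL (12.4%), and *Folr2* was the 1 of 9 in the interaction (6.87%). *Retnla* and *Chil3* were the 2 of 10 in Chemo against MC (9.77%). In MC against CTRL (11.8%), MC averaged over chemotherapy (15.9%) and Lean against CTRL (3.11%) 0 of the 9 were at that level. Nothing is read from these counts.

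Chemotherapy averaged over the diets called 0 of the 9 genes by edgeR (background 0.0266%, 4 transcripts) and *Chil3* by DESeq2 (background 0.126%). The test of any difference among the 5 groups, with no fold criterion, called 0 of the 9 by edgeR (background 0.386%, 58 of 15029) and *Chil3* by DESeq2 (background 2.95%). DESeq2 called 0 of the 9 in Chemo against CTRL (background 0.0841%) and in MC + Chemo against CTRL (background 0.709%), and *Chil3* alone of the 10 in Chemo against MC (background 1.19%). Limma voom with quality weights called 0 of these genes in every comparison. As for separation of groups, *Chil3* was among the 0.66% of transcripts whose Chemo tumors all lay above CTRL. *Retnla* was among the 0.726% whose Chemo tumors all lay below, from which nothing is read because the same CTRL tumors entered its choice.

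**Figure D4:**
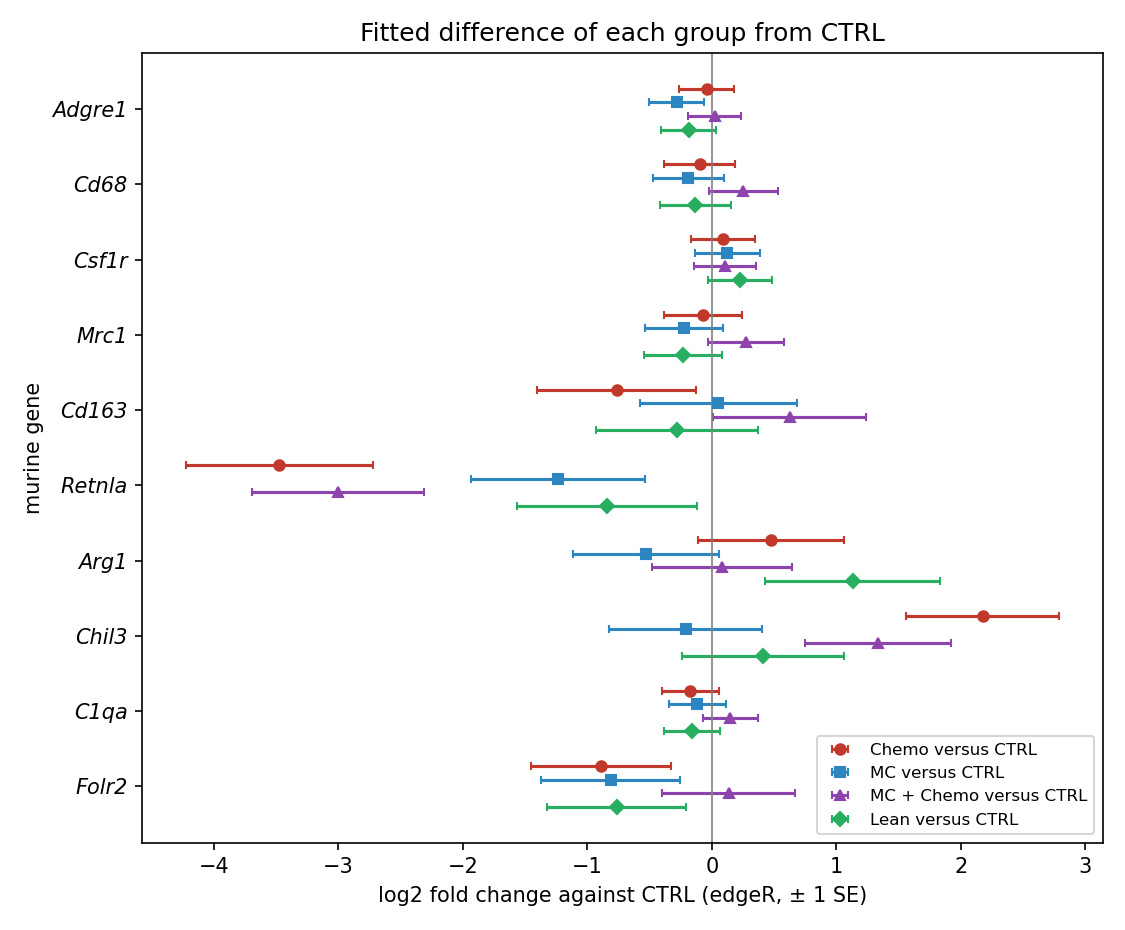
Fitted log2 fold change against CTRL (horizontal axis, edgeR) of the 10 murine genes in Chemo, MC, MC + Chemo and Lean, with bars of 1 SE. *Retnla* in Chemo (−3.48, and −2.37 without CTRL 17) and MC + Chemo (−3.0, and −1.91 without CTRL 17), shown as a description, and *Chil3* in Chemo (2.17) lie farthest from 0, while the bars of *Adgre1*, *Cd68*, *Csf1r* and *C1qa* lie close to it.

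To set activation genes beside macrophage content, each was expressed relative to the mean log2 level of *Adgre1*, *Cd68* and *Csf1r* in the same tumor. That pan-macrophage level was 10.15 ± 0.23 in CTRL (mean log2 normalized count plus 1 ± SD, n = 4), 10.13 ± 0.20 in Chemo, 9.97 ± 0.57 in MC, 10.30 ± 0.21 in MC + Chemo, with 10.14 ± 0.17 in Lean. Relative to it *Retnla* was at −0.11 ± 1.30 in CTRL and −3.51 ± 1.48 in Chemo on the log2 scale, and at −0.94 ± 0.96 in MC, −3.05 ± 1.03 in MC + Chemo, with −0.60 ± 0.95 in Lean. The *Retnla* difference of Chemo from CTRL on this relative scale was −3.39, and −2.79 without CTRL 17.

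Relative *Chil3* was at −6.29 ± 1.38 in CTRL against −4.01 ± 0.78 in Chemo, −6.60 ± 1.40 in MC, −4.95 ± 0.64 in MC + Chemo, with −5.84 ± 0.86 in Lean. Its difference of Chemo from CTRL was 2.28, and 1.61 without CTRL 17. Relative *C1qa* stayed between 2.09 and 2.28 and relative *Mrc1* between 0.09 and 0.31 in all group means. The group means of relative *Arg1* ran from −3.45 to −2.58, those of *Cd163* from −4.72 to −3.74 and those of *Folr2* from −3.22 to −2.46, each with a tumor-to-tumor SD of up to 1.54, 1.31 and 1.23. No test was made of these relative levels.

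**Figure D5:**
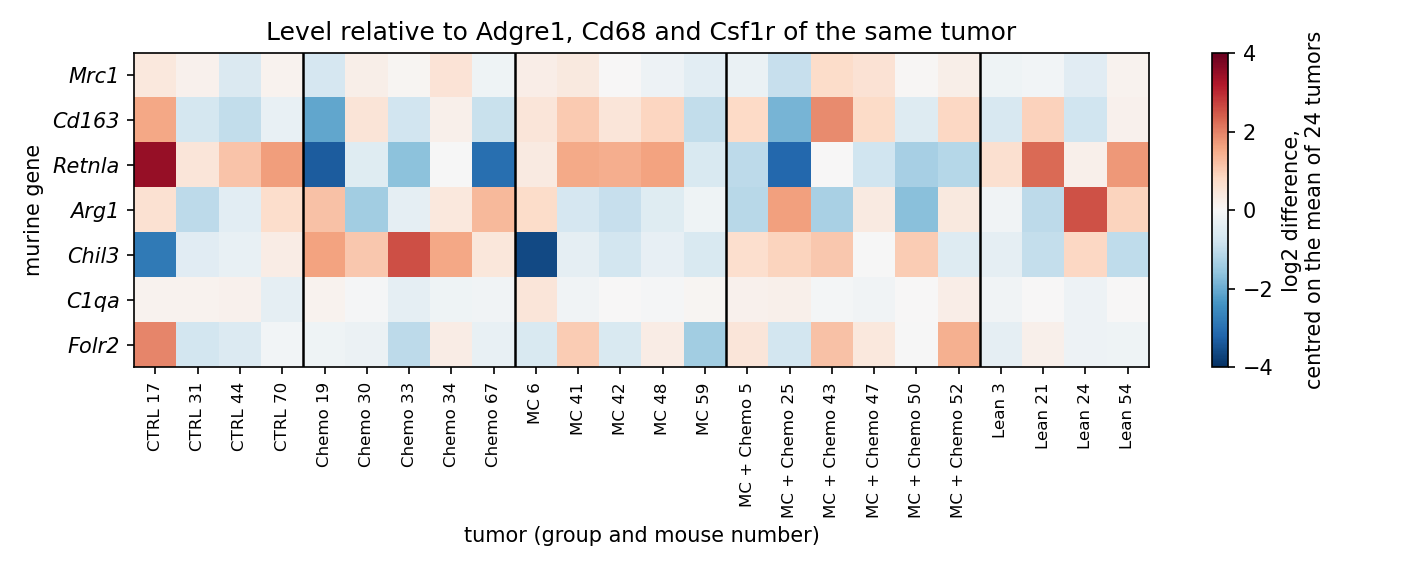
Log2 level of 7 murine genes minus the mean log2 level of *Adgre1*, *Cd68* and *Csf1r* of the same tumor, centred on each gene's mean over 24 tumors (blue lower, red higher), with tumors in columns and groups divided by black lines. *Retnla* is mostly blue in the Chemo and MC + Chemo columns and mostly red in CTRL, MC and Lean, with MC 59 on the blue side. *Chil3* is mostly the reverse, and *C1qa* and *Mrc1* stay pale.

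Across tumors the 10 genes fell into sets that varied together, given here as a description over 24 tumors that share library depth and tissue composition. *C1qa* followed *Cd68* (Pearson r = 0.783, Spearman rho = 0.752) and *Adgre1* (r = 0.663, rho = 0.641). *Cd163* followed *Folr2* (r = 0.737, rho = 0.718) and *Mrc1* (r = 0.735, rho = 0.660). Without the 2 tumors farthest from the median these values of r were 0.727, 0.551, 0.686 and 0.569. *Arg1* had its highest r with *Cd68* (0.298) and its lowest with *Cd163* (−0.409).

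*Retnla* and *Cd163* had r = 0.573 (rho = 0.461) over all tumors, and 0.544 without 2 tumors. With each group's mean subtracted the value was 0.916, and it was 0.766 with *Mrc1* and 0.710 with *Folr2*. Within groups the tumors rich in *Cd163* were thus also those rich in *Retnla*, as CTRL 17 (204 and 3929 normalized counts) and MC + Chemo 43 (289 and 387) show, with far less *Retnla* in the second. *Chil3* followed *Adgre1* (r = 0.656, 0.709 with group means subtracted), and had r = −0.475 with *Retnla* (0.0058 with group means subtracted).

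Outside the 10 genes, those most like the pan-macrophage level among 10293 transcripts were *Ctsh* (r = 0.897), *Ctsa* (r = 0.891) and *C1qb* (r = 0.890), 2 lysosomal cathepsins and a second chain of C1q. *C1qa* was most like *C1qb* (r = 0.842), *Rtp4* (0.814) and *Apoe* (0.807). *Mrc1* was most like *Tmeff2* (0.912), *Maf* (0.908), a transcription factor of resident macrophages, and *Il1rl1* (0.882), the interleukin-33 receptor.

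*Arg1* was most like *Adam8* (0.772), *Hilpda* (0.760), a lipid droplet protein induced by hypoxia, and *Msr1* (0.698), a macrophage scavenger receptor. *Chil3* was most like *Tdp1* (0.833), *Dok3* (0.792) and *Cd300c2* (0.789), and *Retnla* was most like *Lyz1* (0.727), *Rundc1* (0.694) and *Aff3* (0.691). Without the 2 tumors farthest from the median the *Retnla* values were 0.594, 0.638 and 0.649, and the *Chil3* values 0.692, 0.593 and 0.578.

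The wider macrophage lists were read beside the 10 genes. Of 22 pan-macrophage genes 0 were called in any comparison by edgeR or DESeq2, and the median log2 fold change was −0.04 in Chemo, −0.22 in MC, 0.04 in MC + Chemo, with −0.09 in Lean against CTRL. The median of all transcripts ran from −0.0086 to 0.011 in these comparisons. With chemotherapy averaged over the diets 1 of the 22, *Lyz2* (lysozyme), passed an unadjusted p of 0.05, at 0.55 ± 0.21. Of 18 C1q and tissue-resident genes 0 were called by edgeR or DESeq2 in that comparison and 3 passed an unadjusted p of 0.05, with 17 higher, 1 lower and a median of 0.20. Of all transcripts 2.39% were higher and 3.3% lower at that level. In MC + Chemo against CTRL 17 of the 18 were also higher, with a median of 0.64 and 0 called by edgeR. At an unadjusted p under 0.05 there were 3 of the 18, where 12.4% of all transcripts were at that level, and nothing is read from this count. Nor is anything read from the 17 higher genes of either comparison, because genes of this list varied together over the tumors. With the mean level of the rest of the list *Mrc1* had r = 0.850, *Folr2* 0.827, *Cd163* 0.787 and *C1qa* 0.354. DESeq2 called 1 of the 18 in MC + Chemo against CTRL, *Gas6* (1.10 ± 0.30, adjusted p = 0.0296), a ligand of the receptors that clear dying cells. It did not call *Gas6* without CTRL 17 (0.95 ± 0.32, adjusted p = 0.142).

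Of the 23 alternative-activation genes tested, 10 were higher and 13 lower with chemotherapy averaged over the diets (median −0.13, *Retnla* included). This list was drawn up with earlier results of these data known, so nothing is read from its counts. Leaving *Retnla* out, 1 was higher (*Chil3*) and 5 were lower at an unadjusted p under 0.05, where 2.39% and 3.3% of all transcripts were higher and lower at that level. The lower ones were *Alox15* (−2.17 ± 0.53), *Pdcd1lg2* (−1.35 ± 0.40), *Ear2* (−1.23 ± 0.34), *Ccl22* (−1.22 ± 0.33) and *Ccl17* (−1.14 ± 0.40), with edgeR adjusted p from 0.241 to 0.691. *Alox15* encodes a lipoxygenase, *Pdcd1lg2* the ligand PD-L2, and *Ccl17* and *Ccl22* chemokines of the receptor CCR4.

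*Alox15* held 7.72 to 41.3 normalized counts in CTRL and 0 to 4.07 in Chemo. *Ear2*, an eosinophil-associated ribonuclease, held 45.1 to 132 in CTRL and 7.60 to 44.2 in Chemo. For both genes all Chemo tumors lay below all CTRL tumors, as for 0.726% of all transcripts. Nothing is read from this, because both were named for their low p over the same 5 groups. In MC + Chemo against CTRL DESeq2 called *Ear2* (−2.11 ± 0.48, adjusted p = 0.00554), *Ccl17* (−2.12 ± 0.56, adjusted p = 0.0255) and *Ccl22* (−1.75 ± 0.48, adjusted p = 0.0308), and called the same 3 genes without CTRL 17. The background with all tumors was 0.709%. These calls are given as a description, because the list was drawn up with earlier results of these data known. *Il4ra* (0.09 ± 0.20) and *Stat6* (0.08 ± 0.10), which carry the interleukin-4 signal, and *Clec10a* (−0.13 ± 0.38), a lectin of alternatively activated macrophages, had small differences. *Ccl17*, *Ccl22*, *Il4ra*, *Stat6* and *Clec10a* were singled out after their values were seen.

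The 13 tested genes of classical activation were 1 higher and 12 lower with chemotherapy averaged over the diets (median −0.32), with 0 called by edgeR, 3 at an unadjusted p under 0.05 and 1 called by DESeq2. Of all transcripts 2.39% were higher and 3.3% lower at that unadjusted level, 0.0266% were called by edgeR and 0.126% by DESeq2. The list was drawn up with earlier results of these data known, so nothing is read from these counts. Against CTRL the median of the listed genes was −0.71 in Chemo, −0.58 in MC and −0.67 in MC + Chemo. With chemotherapy averaged over the diets the interferon-induced chemokine *Cxcl9* was at −1.12 ± 0.30 and the interleukin-12 subunit *Il12b* at −1.24 ± 0.33. The chemokine *Ccl5* was at −1.03 ± 0.33 (edgeR adjusted p from 0.385 to 0.629 for the 3 genes). *Cxcl9* held 1275 to 1771 normalized counts in CTRL and 518 to 877 in Chemo. All its Chemo tumors lay below all CTRL tumors, as for 0.726% of all transcripts. Nothing is read from this separation, because *Cxcl9* was named for its low p over the same 5 groups. Of 7 ligand genes in the table, among them *Csf1*, *Tgfb1* and *Il33*, 0 were called by edgeR or DESeq2 with chemotherapy averaged over the diets. Of these 7 genes 1 passed an unadjusted p of 0.05, with a median of 0.07 for the list. Nothing is read from this count either, beside the 2.39% of all transcripts higher and 3.3% lower at that level. The table does not hold *Il4*, *Il13* or *Ifng*.

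Markers of other blood cells were read in the same comparison. Of 12 tested neutrophil genes 11 were higher with chemotherapy averaged over the diets and 1 was called by edgeR (background 0.0266%), the granule gene *Camp* at 5.42 ± 0.92 (adjusted p = 0.0470). *Ngp*, a second granule gene, was at 5.74 ± 1.05 (adjusted p = 0.0658), and *Elane*, neutrophil elastase, at 5.24 ± 1.26 (adjusted p = 0.291). The edgeR test of the 5 groups called *Camp* and *Ngp* (adjusted p = 0.0229 for each, background 0.386%). This list, too, was drawn up with earlier results of these data known, so nothing is read from its counts. The summed normalized count of the 13 neutrophil markers in the table ran from 530.1 to 2592 in CTRL, 1237 to 9023 in Chemo, 1430.3 to 2564 in MC, 657 to 7171 in MC + Chemo and 1913 to 2841 in Lean. The mean level of that list followed *Chil3* over the 24 tumors (r = 0.670, rho = 0.817, and 0.430 with group means subtracted). That of the 7 monocyte markers did so too (r = 0.653, rho = 0.769, and 0.420 with group means subtracted). Other lists had a lower r with *Chil3* over all tumors but a higher one with group means subtracted. These values were 0.572 and 0.629 for the 22 pan-macrophage genes, and 0.483 and 0.673 for the 9 dendritic cell markers. Early neutrophils and monocytes can also express *Chil3*, and their part in the *Chil3* difference was not tested.

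Of 7 eosinophil markers 3 were in the table, *Epx* was not, and their summed normalized count ran from 29.9 to 65.3 in CTRL, 6.05 to 28.5 in Chemo, 0 to 38.8 in MC, 6.16 to 17.8 in MC + Chemo and 14.0 to 53.6 in Lean. *Siglecf* was at −1.21 ± 0.44 and *Ccr3* at −1.65 ± 0.55 with chemotherapy averaged over the diets (adjusted p of 0.746 and 0.649). The remaining marker, *Prg2*, had an unadjusted p of 0.0174 in the edgeR test of the 5 groups (adjusted p = 0.245). The mean level of the eosinophil list and *Retnla* had r = 0.540 (rho = 0.637) over the 24 tumors, and 0.347 with group means subtracted. Some other lists were closer to *Retnla*, by r or with group means subtracted. The 6 natural killer cell markers had r = 0.588 (0.618 with group means subtracted). The C1q and tissue-resident list had r = 0.215 (0.803) and the mast cell list r = 0.425 (0.673). The part of eosinophils or of these other cells in the differences of *Retnla*, *Alox15* and *Ear2* was not tested.

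The summed normalized count of 10 adipocyte markers ran from 404 in CTRL to 149232 in MC + Chemo, and that of 10 skeletal muscle markers from 84.2 in MC to 63263 in MC + Chemo. The mean level of the muscle markers followed *Cd163* (r = 0.668), and that of the 7 mast cell markers followed *Cd163* (r = 0.775) and *Mrc1* (r = 0.654). The part of muscle, fat or mast cells in the *Cd163* and *Mrc1* levels was not tested. The 6 erythroid markers in the table had a median log2 fold change of 2.32 in Chemo, 1.88 in MC and 2.61 in MC + Chemo against CTRL. Lean also lay above CTRL. The summed normalized count ran from 708 to 2422 in CTRL, 3759 to 14757 in Chemo and 3163 to 11150 in MC. It ran from 6054 to 21897 in MC + Chemo and 4583 to 5176 in Lean. Of these markers the globin gene *Hba-a1* was called in the edgeR test of the 5 groups (adjusted p = 0.0491, background 0.386%).

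Because each library also held human transcripts, the human genes of the same names were read. Of the 10 namesakes 4 were in the human table, with a total of 336 counts for *ADGRE1*, 1656 for *CD68*, 684 for *CSF1R* and 1485 for *MRC1* over the 24 tumors. These totals were 2.30, 7.42, 0.889 and 4.14% of the counts of the murine genes. *MRC1* and murine *Mrc1* had r = 0.604 over the tumors, and *CD68* and *Cd68* had r = 0.138. How a read that fits both genomes was assigned is not given in the sources used here.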

How the data were processed

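Whole-tumor RNA of 24 xenografts was sequenced with the QuantSeq kit, which reads transcripts at their 3′ end. The authors aligned the reads with BlueBee software and deposited whole-number counts per murine and per human gene, and a table of the counts divided by a DESeq2 size factor per library (normalized counts, a signal scaled for depth). The labels name DESeq2 1.22.2 and GRCm38. The counting tool, whether counting used strand, and how reads matching both genomes were assigned, are not given in the sources used here. The murine table holds 16667 genes, of which 2991 identifiers have no symbol, and its lowest gene total is 72. No 2 libraries of a group were identical (47 pairs).

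The murine counts were tested with edgeR 4.0.16 in R 4.3.3 (TMM, filterByExpr, quasi-likelihood F test, Benjamini-Hochberg over all genes kept), in 1 fit of the 20 randomized libraries, or of all 24 for Lean and for the 5 groups. DESeq2 1.42.0 and limma 3.58.1 (voom with quality weights) were alternatives, beside other scalings, filters and left-out tumors. Comparisons with CTRL share its 4 tumors. The 3 tools were tested on simulated data before use. A call needed an adjusted p under 0.05, a mean normalized count over 30 and, between 2 groups, a fold over 1.5. Chemo against MC, DESeq2 without CTRL 17 and a murine-total scaling were added after seeing the data. Log2 levels used a pseudocount of 1. Groups came from the labels, and p-values measure the spread between tumors. The members and the 19 gene lists were chosen with earlier results of these data known. All 10 members were named. The likeness to other genes used those with a mean of at least 30. Named list genes were taken from those called, up to 3 per list and comparison by fold, or otherwise from the 3 of lowest unadjusted p over the 5 groups. Not every such gene is named. Others named were chosen after their values were seen.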

Additional observations from a re-analysis of the deposited data

Results flagged for a closer look

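Among 50 groups of 4 to 6 tumors tested for a single far value by Dixon's ratio, 6 exceeded the 95% critical value, where chance alone gives about 1 in 20. CTRL 17 accounted for 4 of them. It held 1275 normalized counts of *Cd68* (ratio 0.876), 204 of *Cd163* (0.960), 3929 of *Retnla* (0.874) and 616 of *Folr2* (0.925), each the highest of the 4 CTRL tumors, and it had the lowest summed endothelial markers of CTRL (513). The other far values were *Mrc1* in MC 6 at 767 (ratio 0.848), the lowest of MC, and *C1qa* in Chemo 19 at 6987 (0.779), the highest of Chemo. No cause was tested.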

How the results depend on the processing

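No paired analysis was possible because the groups compared share no replicate numbers. The counts of called transcripts depended on the tool. DESeq2 called 14 transcripts in Chemo against CTRL, 226 in MC against CTRL, 118 in MC + Chemo against CTRL, 21 for chemotherapy averaged over the diets, 416 for MC averaged over chemotherapy, 190 in Chemo against MC, 1 in Lean against CTRL and 491 among the 5 groups. Without CTRL 17, chosen after seeing the data, DESeq2 called 10, 22, 59, 22 and 282 in the first 5 of these. Limma voom with quality weights called 97 in MC + Chemo against CTRL, 9 for chemotherapy averaged, 64 for MC averaged and 0 among the 5 groups. Chemotherapy averaged over the diets gave 0 with scaling to murine plus human reads, 1 with MC + Chemo 5 placed in MC and 0 without the 3 cleaned-up libraries, and the 5-group test gave 21, 0 and 0. A fit to all 24 libraries gave 150 for MC averaged over chemotherapy. Leaving out 1 tumor at a time gave 0 to 1 in Chemo against CTRL, 0 to 1 in MC + Chemo against CTRL, 0 to 6 for chemotherapy averaged, 0 to 188 for MC averaged, 0 to 1 in Lean against CTRL and 0 to 236 among the 5 groups, where the test on all tumors called 58. The 1 in Chemo against CTRL, MC + Chemo against CTRL and Lean against CTRL came without CTRL 31, the 188 and the 236 came without MC 42, and the 6 came without Chemo 34. No single tumor left out gave a call in MC against CTRL, in Chemo against MC or for the interaction. The cause of these changes was not tested.

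Of 55 differences of the 10 genes, 25 kept their sign in every alternative run. The differences of *Retnla* and *Chil3* kept their sign in Chemo against CTRL, in MC + Chemo against CTRL, with chemotherapy averaged and in Chemo against MC, with 1 tumor left out from −4.05 to −2.37 and 1.82 to 2.46 in Chemo against CTRL, and from −2.81 to −1.91 and 2.03 to 2.61 in Chemo against MC. In MC + Chemo against CTRL these ranges were −3.34 to −1.91 and 0.98 to 1.62, and for chemotherapy averaged −2.91 to −2.07 and 1.68 to 2.00. That of *Retnla* in the interaction was 0.61 to 2.28. The *Retnla* values nearest 0 in Chemo against CTRL, MC + Chemo against CTRL, chemotherapy averaged and the interaction came without CTRL 17. The other 30 changed sign at least once, each without passing a test, with the log2 values that follow. Limma voom with quality weights turned *Cd68* to 0.0082, *Cd163* to 0.056 and *Folr2* to 0.056 in Chemo against CTRL, *Adgre1* to 0.00088, *Cd68* to 0.16 and *C1qa* to 0.25 in MC against CTRL, *Arg1* to −0.21 in MC + Chemo against CTRL, *Cd163* to 0.33 in chemotherapy averaged over the diets, and *Cd68* to 0.0077, *Cd163* to 0.24, *C1qa* to 0.034 and *Folr2* to 0.11 in Lean against CTRL. Scaling to murine plus human reads turned *Adgre1* to 0.10 and *Mrc1* to 0.063 in Chemo against CTRL, *Adgre1* to −0.015 and *Arg1* to −0.16 in MC + Chemo against CTRL, and *Adgre1* to 0.0053, *Cd68* to 0.016 and *C1qa* to 0.035 in Lean against CTRL. Placing MC + Chemo 5 in MC turned *Chil3* to 0.26 in MC against CTRL, and *C1qa* to −0.028 and *Folr2* to −0.073 in chemotherapy averaged over the diets. Leaving out the 3 cleaned-up libraries turned *Cd163* to −0.076 and *C1qa* to 0.000196 in MC against CTRL, and *Csf1r* to −0.034 and *C1qa* to −0.013 in chemotherapy averaged over the diets. DESeq2 without CTRL 17, chosen after seeing the data, turned *Cd68* to 0.12, *Mrc1* to 0.12, *Cd163* to 0.26 and *Folr2* to 0.24 in Chemo against CTRL, *Cd68* to 0.024 in MC against CTRL, *Adgre1* to −0.0058 in MC + Chemo against CTRL, and *Cd163* to 0.42 in chemotherapy averaged over the diets. With 1 tumor left out the ranges were in Chemo against CTRL *Adgre1* from −0.13 to 0.16, *Cd68* from −0.27 to 0.13, *Csf1r* from −0.032 to 0.24, *Mrc1* from −0.23 to 0.12, *Cd163* from −1.0 to 0.26 and *Folr2* from −1.17 to 0.25. In MC against CTRL *Cd68* from −0.39 to 0.023, *Csf1r* from −0.031 to 0.28, *Cd163* from −0.21 to 1.07, *Chil3* from −0.57 to 0.071, *C1qa* from −0.29 to 0.0086 and *Folr2* from −1.10 to 0.32. In MC + Chemo against CTRL *Adgre1* from −0.057 to 0.21, *Csf1r* from −0.018 to 0.24, *Arg1* from −0.35 to 0.34, *C1qa* from −0.021 to 0.28 and *Folr2* from −0.15 to 1.27. In chemotherapy averaged over the diets *Csf1r* from −0.049 to 0.11, *Cd163* from −0.32 to 0.42, *C1qa* from −0.038 to 0.12 and *Folr2* from −0.11 to 0.60. In Lean against CTRL *Adgre1* from −0.26 to 0.0041, *Cd68* from −0.22 to 0.084, *Cd163* from −0.69 to 0.73, *Retnla* from −1.24 to 0.24, *Arg1* from −0.080 to 1.48, *Chil3* from −0.26 to 0.69 and *Folr2* from −1.04 to 0.36. Scaling to murine plus human reads moved the median of all transcripts to 0.13 in Lean against CTRL and to −0.24 in the interaction. The cause was not tested. *Chil3* had the lowest mean normalized count of the 10 genes, and its count was 0 in MC 6.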
